A study of Homo sapiens with 60 samples.

Results

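The 10 genes described here are 5 that restrain or carry NF-kB signalling (the inhibitors NFKBIA, TNFAIP3 and BIRC3 and the subunits RELB and NFKB2, together called the feedback genes) and 5 effectors of inflammation (ICAM1, CCL2, CCL20, IL32 and LCN2). They were chosen by name, and all 10 were found by symbol among the 60675 genes of the count table. The series sequenced RNA of A549, a widely used human line from a lung carcinoma, 24 h after a herbal extract or vehicle was added, as 60 libraries of 25 groups. Soshiho-tang and Yijin-tang are decoctions of several herbs, given as water extracts. Aucklandiae Radix, Liriopis seu Ophiopogonis Tuber, Longan Arillus, Polygalae Radix, Schisandrae Fructus and Zizyphi Semen are single herbs, given as ethanol extracts, and are called by their first word from here on. The high, medium and low doses were 500, 100 and 20 µg/mL, but 380, 76 and 15.2 µg/mL for Polygalae and 370, 74 and 14.8 µg/mL for Aucklandiae. Vehicle and 5 of the extracts had 3 libraries a group, Soshiho-tang had 2 (its replicates 2 and 3), and Polygalae and Aucklandiae had 1. Vehicle was 0.1% DMSO by the sample labels and 2% by the series text, and no DMSO share is recorded for extract libraries. Every vehicle library carried the set label C1, whereas the extracts carried set 8 (Yijin-tang, Soshiho-tang), 9 (Liriopis, Schisandrae), 10 (Longan, Zizyphi) or 11 (Polygalae, Aucklandiae). An effect of the extracts against vehicle and a difference between sets therefore cannot be told apart, and each extract's high dose was tested against its own low dose as well, within 1 set.

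NF-kB is a family of transcription factors that sits in the cytoplasm bound to inhibitors until a receptor such as that for TNF or IL-1 signals for the inhibitor to be destroyed. The released dimers switch on genes of inflammation and, among them, their own brakes: NFKBIA encodes IkBalpha, which binds the dimers again, TNFAIP3 encodes the ubiquitin-editing enzyme A20, which quiets the receptor complex, and BIRC3 encodes the ubiquitin ligase cIAP2, which acts at TNF receptors and also helps to destroy the kinase that starts the slower, non-canonical branch. RELB and the p52 product of NFKB2 form the dimer of that branch, and both genes are themselves NF-kB targets. Lung epithelial cells answer this pathway with the adhesion molecule ICAM1, the chemokines CCL2 and CCL20, the cytokine IL32 and the iron-scavenging protein LCN2.

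The promoters of these genes are shown because the 10 genes are known as targets of 1 factor family. RefSeq promoter windows of GRCh38.p14, from 250 bases before to 50 bases after a gene's start, were searched on both strands for the 10-letter NF-kB consensus. Of the 8 members in the table of windows, 7 held a match, and ICAM1 held none; CCL2 and RELB had no entry. For comparison, 5.91% of 35116 windows and 7.09% of 27305 genes held one. The runs below are 5′ to 3′ on the gene's strand with matches in capitals, and a longer stretch of capitals joins matches that overlap.
NFKBIA, chr14:35404801-35404850, minus strand: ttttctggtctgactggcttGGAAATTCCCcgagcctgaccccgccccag
TNFAIP3, chr6:137867172-137867233, plus strand: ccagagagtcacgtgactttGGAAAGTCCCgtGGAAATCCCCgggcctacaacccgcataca
BIRC3, chr11:102317265-102317314, plus strand: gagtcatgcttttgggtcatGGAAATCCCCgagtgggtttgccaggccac
NFKB2, chr10:102394451-102394529, plus strand: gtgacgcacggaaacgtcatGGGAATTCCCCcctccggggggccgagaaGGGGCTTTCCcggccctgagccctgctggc
CCL20, chr2:227813743-227813792, plus strand: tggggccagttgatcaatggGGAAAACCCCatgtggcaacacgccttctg
IL32, chr16:3065284-3065334, plus strand: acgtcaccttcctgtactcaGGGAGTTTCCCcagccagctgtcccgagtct
LCN2, chr9:128149258-128149307, plus strand: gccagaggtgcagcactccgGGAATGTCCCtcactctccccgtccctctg
For NFKB2 and IL32, which have several windows, 1 window is shown; another NFKB2 window also held matches, and 1 further window of each gene held none. BIRC3 had a second match, 135 bases before the start, that is not printed. In the windows shown, the first match began 81 bases before the start of NFKBIA, 67 before TNFAIP3, 199 before BIRC3, 107 before NFKB2, 79 before CCL20, 99 before IL32 and 175 before LCN2. A match says only that these letters are there.

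Library totals ran from 18.003 to 33.832 M counts (M, the prefix mega), with a median of 23.897 M. Levels are given in CPM, counts per M counts of the library after TMM scaling, and are not comparable between genes because they are not divided by gene length. Replicate 3 of Soshiho-tang medium and replicate 3 of Longan low stood apart: their counts fell with gene length against all other libraries (slopes of -0.4022 and -0.4652 in this order, against -0.0791 to 0.121). Tests are therefore given from the fit of all 54 replicated libraries, and counts of members called also from the same fit of 52 without these. In the fit of 52 the common dispersion was 0.00244 in place of 0.0173. A single test is from the fit of 54 where no other fit is named for it or for the calls it belongs to. Nothing in the labels says that replicates came from separate cultures, so the p-values measure only the spread between libraries of a group, which may be technical. All 11 A549 epithelial markers were present. Of 15 leukocyte markers, CD3D, MS4A1 and HLA-DRA were at 0 in all 60 libraries, 11 were under 1 CPM throughout, and PTPRC, the pan-leukocyte antigen, reached at most 0.0847 CPM, while CD68 averaged 12.27 CPM in vehicle and reached 27.51, CD14 averaged 2.078 and reached 4.953, ITGAM averaged 1.393 and reached 2.935, and LYZ reached 2.305. Of 10 fibroblast markers 6 were under 1 CPM throughout, with COL1A1 at 29.57 and THY1 at 6.503 CPM in vehicle, as were 8 of 9 endothelial markers. All 5 surfactant genes of differentiated alveolar cells were under 1 CPM.

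Against vehicle, NFKBIA and TNFAIP3 were higher in extract libraries of every extract and dose, low doses included, while RELB was mostly lower. The effectors did not share this offset. At the high dose of the decoctions, effectors and part of the feedback genes rose together. Polygalae and Aucklandiae had 1 high library each, and different feedback genes stood farthest above vehicle in them. These were TNFAIP3 and NFKBIA in Polygalae and BIRC3 and NFKB2 in Aucklandiae. Of the effectors, CCL2 was high in Aucklandiae and none in Polygalae.

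**Figure D1:**
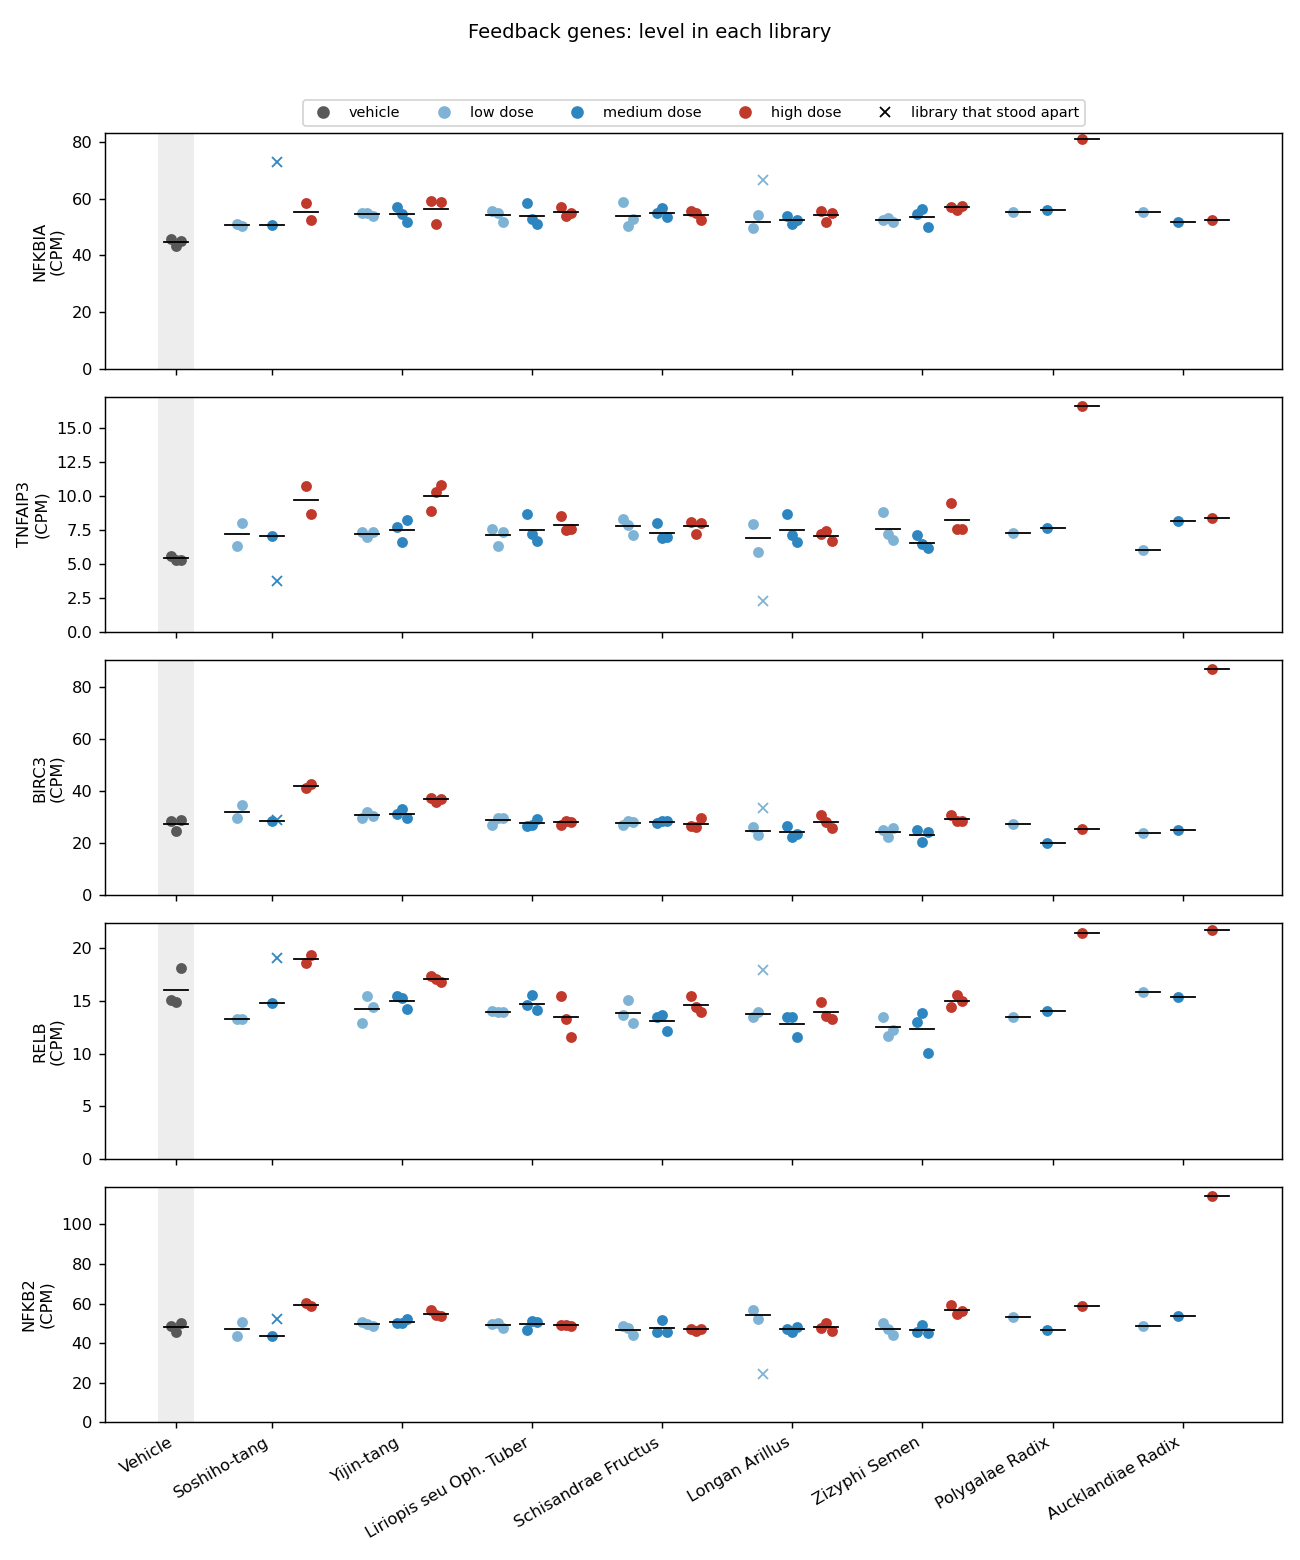
Level of the 5 feedback genes in CPM (vertical axes) in each library, by extract and dose (horizontal axes); dots are libraries, crosses the pair that stood apart, black lines group means without that pair, and the gray column holds vehicle. NFKBIA and TNFAIP3 dots lie above the vehicle dots in all 55 other extract libraries, and single high libraries of Polygalae (NFKBIA, TNFAIP3) and Aucklandiae (BIRC3, NFKB2) stand above the rest.

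NFKBIA (chromosome 14, 35401511 to 35404749, minus strand, GENCODE 29 on GRCh38) measured 45.74, 43.47 and 45.16 CPM in the vehicle libraries. Its lowest, median and highest values in the 55 extract libraries other than the pair that stood apart were 49.78, 54.55 and 81.33 CPM, and in the 18 of these at the low dose 49.78, 53.56 and 58.96 CPM. The pair itself measured 73.06 and 66.76 CPM. No extract library overlapped vehicle, and libraries of the low dose overlapped those of the high dose.

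TNFAIP3 (chromosome 6, 137867188 to 137883312, plus strand) measured 5.597, 5.326 and 5.294 CPM in vehicle. Its extract libraries had a lowest value of 5.872, a median of 7.48 and a highest of 16.58 CPM, and the 18 low-dose libraries 5.872, 7.278 and 8.811 CPM. The pair that stood apart went the other way, at 3.733 and 2.31 CPM, below vehicle. TNFAIP3 overlaps AL357060.1, and because the strand setting of the counting is not given in the sources used here, reads of such neighbours may be included. With the pair left out, a level above vehicle in every extract library was seen for 0.398% of all 17826 genes tested (71 genes). In every low-dose library, also without the pair, it was seen for 1.99% (354 genes). NFKBIA and TNFAIP3 were the members that met the first criterion, which includes the second. With the pair counted, TNFAIP3 would not meet it.

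Tests of single groups against vehicle gave these offsets unevenly. In the fit of 54 libraries NFKBIA was higher by 0.18 to 0.36 on the log2 scale at the 6 low doses, called at 1 (Longan, adjusted p = 0.00218), and by 0.28 to 0.35 at the 6 high doses, called at 1 (Zizyphi, 0.35 ± 0.0871 SE, adjusted p = 0.0168). The Longan low call was lost when its replicate 3 alone was left out (adjusted p = 0.0712). It held in the fit of 52, which omits that library too. A further call at Soshiho-tang medium (0.47, adjusted p = 0.00783) rested on its replicate 3. Its change was 0.19 in the fit of 52, which leaves 1 library in that group. In the fit of 52, NFKBIA was called higher at 6 of 6 high, 5 of 6 medium and 5 of 6 low doses, and TNFAIP3 at 6, 4 and 4. Over all genes, 9.55% of such tests at medium and 11.5% at low doses were called, either way. At high doses 10.2% of genes were higher in Soshiho-tang, 3.04% in Yijin-tang and 9.29% in Zizyphi. In Liriopis, Schisandrae and Longan together 10.1% of such tests were called, either way. All of these tests share the vehicle libraries and do not repeat each other independently.

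RELB (chromosome 19, 45001430 to 45038198, plus strand), the subunit of the non-canonical branch, measured 15.07, 14.94 and 18.09 CPM in vehicle. In the 55 extract libraries it had a lowest value of 10.08, a median of 14.0 and a highest of 21.78 CPM; 37 lay below all vehicle libraries and 4 above. Of the 18 low-dose libraries, 15 lay below and none above. RELB was called lower at Zizyphi medium (13.04, 13.9 and 10.08 CPM; -0.37, adjusted p = 0.0318) and low (13.51, 11.67 and 12.27 CPM; -0.36, adjusted p = 0.0389). In the fit of 52 it was called lower at 3 of 6 medium doses and 1 of 6 low doses. Over all genes 9.55% and 11.5% of such tests were called, either way.

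BIRC3 (chromosome 11, 102317450 to 102339403, plus strand) differed between sets at the low dose. It measured 28.67, 24.71 and 28.96 CPM in vehicle, 29.73 to 34.47 CPM in the 5 low-dose libraries of set 8, 27.0 to 29.73 CPM in set 9, 22.25 to 26.25 CPM in set 10 and 24.02 to 27.3 CPM in set 11. The low-dose libraries of set 10 lay below those of sets 8 and 9 without overlap, apart from its library that stood apart (33.65 CPM). This spread between sets was not tested.

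Over all 60 tests of the members at the 6 low doses against vehicle, 2 were called in the fit of 54 libraries (7.1% of such tests over all genes) and 11 in the fit of 52 (11.5%). At the medium dose the counts were 2 (1.82%) and 14 (9.55%). Between medium and low doses, 1 of 60 was called in the fit of 54 (3.01%), IL32 in Longan at -0.61, which rested on Longan low replicate 3 (-0.12, adjusted p = 0.915 without it); none was called in the fit of 52 (0.000914%). In that comparison edgeR gave 8 tests at an unadjusted p below 0.05 with 54 libraries, and DESeq2 called 1.

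**Figure D2:**
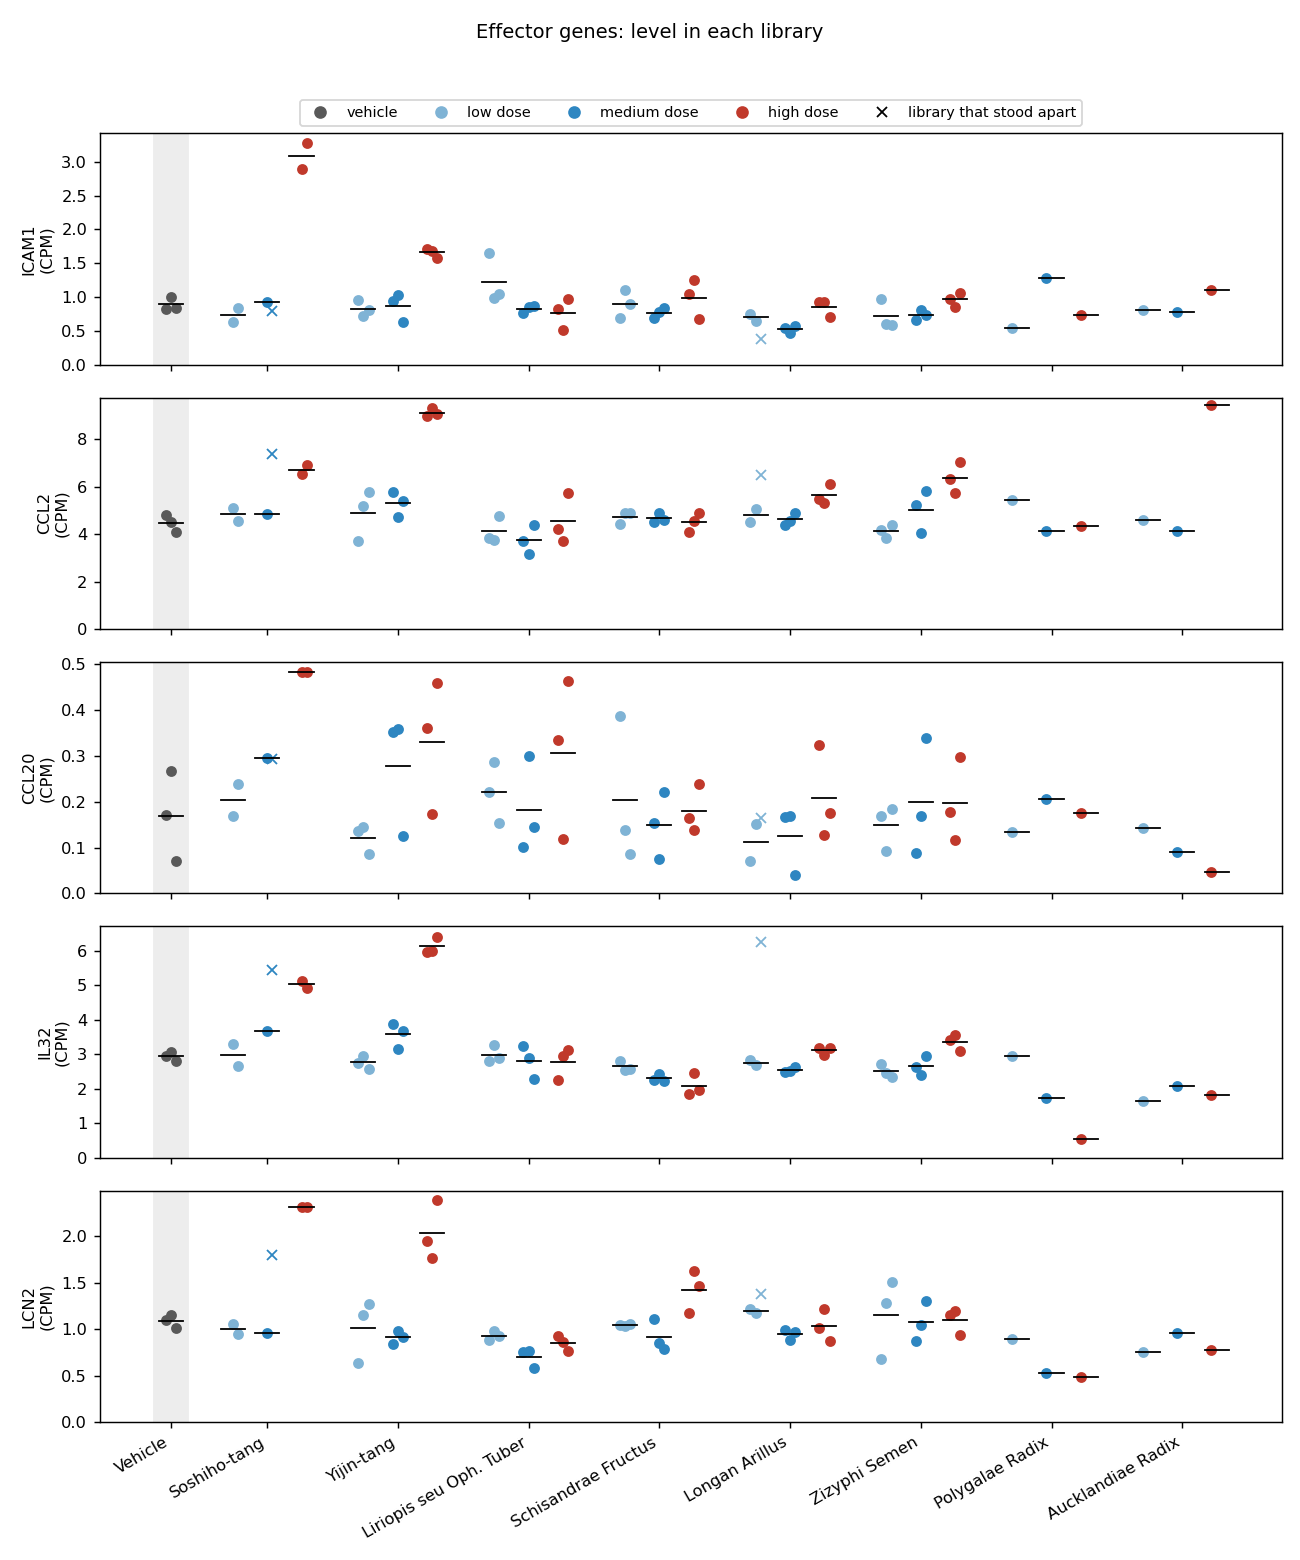
Level of the 5 effectors in CPM (vertical axes) in each library, by extract and dose (horizontal axes), drawn as for the feedback genes. The libraries of Soshiho-tang and Yijin-tang at the high dose stand above the vehicle dots for ICAM1, CCL2, IL32 and LCN2; Polygalae at the high dose stands below it for IL32 and LCN2.

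At 500 µg/mL of Soshiho-tang, 4 of the 5 effectors rose against vehicle, and of the feedback genes BIRC3 and TNFAIP3 did. Of the 10 members, 6 were called higher against vehicle (3.02% of all genes were), and 3 against its low dose (1.17%). In the fit of 52 these counts were 8 (10.2%) and 7 (5.02%). Among the members called, ICAM1 changed most, followed by LCN2; CCL20, which was not called, had the second-largest fitted change. NFKBIA and NFKB2 moved by less than 0.35 on the log2 scale. The median change over the 10 members was 0.69 against vehicle and 0.50 against low, when that over all genes was 0.00337 and 0. The effectors had a median of 1.09 and the feedback genes of 0.31 against vehicle.

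ICAM1 (chromosome 19, 10270835 to 10286615, plus strand), the adhesion molecule that holds leukocytes, measured 0.8241, 1.006 and 0.8414 CPM in vehicle (24, 34 and 24 counts) and 2.889 and 3.278 CPM in Soshiho-tang high (66 and 75 counts). Its low-dose libraries measured 0.6326 and 0.833 CPM and its medium libraries 0.9219 and 0.7969 CPM. High stood clear of every other library of that extract and of vehicle, and medium lay within the range of low and vehicle. ICAM1 rose by 1.79 ± 0.235 (log2, SE) against vehicle (adjusted p = 1.31e-06) and 2.07 ± 0.277 against low (adjusted p = 2.91e-06). ICAM1 overlaps AC011511.2 and AC011511.5 and is uncertain to that extent.

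LCN2 (chromosome 9, 128149071 to 128153455, plus strand), which binds bacterial iron carriers, measured 1.099, 1.154 and 1.017 CPM in vehicle (32, 39 and 29 counts), 1.054 and 0.9521 CPM in Soshiho-tang low and 2.32 and 2.317 CPM in Soshiho-tang high (53 counts each). It rose by 1.09 ± 0.229 against vehicle (adjusted p = 0.00188) and by 1.21 ± 0.263 against low (adjusted p = 0.00684). The high libraries did not overlap vehicle or low.

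IL32 (chromosome 16, 3065297 to 3082192, plus strand), a cytokine that induces others, measured 2.953, 3.078 and 2.805 CPM in vehicle, 3.29 and 2.658 CPM in Soshiho-tang low and 5.122 and 4.939 CPM in high. It was called higher against vehicle (0.77 ± 0.200, adjusted p = 0.0128), and against low in the fit of 52 alone (0.76, adjusted p = 0.0825 with 54 and 0.000167 with 52). IL32 overlaps RNU1-125P and AC108134.3. CCL2 (chromosome 17, 34255218 to 34257203, plus strand), the chemokine that draws monocytes, measured 4.807, 4.498 and 4.102 CPM in vehicle, 5.103 and 4.562 CPM in low and 6.522 and 6.906 CPM in high. It was called higher against vehicle (0.59 ± 0.172, adjusted p = 0.0335) and not against low (0.48, adjusted p = 0.333).

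CCL20 (chromosome 2, 227805739 to 227817564, plus strand), the ligand of CCR6, is near the limit of detection in these cells. It had 5, 9 and 2 counts in vehicle, 4 and 6 in Soshiho-tang low and 11 and 11 in high. The high libraries were above the others, and at these counts the difference did not pass the test (1.45 ± 0.548, adjusted p = 0.134 with 54 libraries and 0.0538 with 52).

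Among the inhibitors, BIRC3 measured 41.15 and 42.57 CPM in Soshiho-tang high, 28.36 and 28.86 CPM in medium and 29.73 and 34.47 CPM in low. It rose by 0.61 ± 0.102 against vehicle (adjusted p = 8.44e-05), and its change against low was 0.39 (adjusted p = 0.0774 with 54 libraries, 0.00146 with 52). TNFAIP3 measured 10.72 and 8.698 CPM in high and 6.326 and 8.013 CPM in low. It rose by 0.85 ± 0.221 against vehicle (adjusted p = 0.014), while its change against low was 0.44 (adjusted p = 0.664 with 54, 0.0448 with 52). NFKBIA, at 58.44 and 52.54 CPM in high and 51.24 and 50.58 CPM in low, differed from vehicle by 0.31 (adjusted p = 0.0505 with 54, 8.58e-05 with 52) and from low by 0.13.

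Of the subunits, RELB measured 18.6 and 19.41 CPM in Soshiho-tang high and 13.29 and 13.25 CPM in low, a rise of 0.52 ± 0.132 against low (adjusted p = 0.0265). Against vehicle its high libraries lay just above the highest vehicle library (0.25, adjusted p = 0.289). NFKB2 (chromosome 10, 102394110 to 102402529, plus strand) measured 48.48, 45.69 and 49.99 CPM in vehicle, 43.78 and 50.93 CPM in low and 60.45 and 58.53 CPM in high. High did not overlap the others, and NFKB2 was called in the fit of 52 (0.31, adjusted p = 3.41e-05 against vehicle) and not in that of 54 (adjusted p = 0.25).

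The Soshiho-tang calls of ICAM1, BIRC3 and LCN2 against vehicle and of ICAM1 against low held when any 1 of the libraries compared was left out, but without Soshiho-tang high replicate 2 or vehicle replicate 3 the count against vehicle fell from 6 to 3. Without any 1 of its 4 libraries the count against low fell from 3 to 1. Leukocyte markers summed to 19.1 to 19.3 CPM in Soshiho-tang high, 16.6 to 18.6 CPM in low and 15.2 to 17.1 CPM in vehicle, and fibroblast markers to 34.1 to 37.6, 44.2 to 44.3 and 41.7 to 42.8 CPM; their part in these results was not tested. In bulk RNA, a change in the number of cells that express a gene and a change in RNA per cell cannot be told apart.

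At 500 µg/mL of Yijin-tang, IL32 and CCL2 rose most against vehicle, and IL32, LCN2 and CCL2 rose against low. Against vehicle 5 of the 10 members were called higher (0.286% of all genes), and 3 effectors against its low dose (0.101%); in the fit of 52 the counts were 8 (3.04%) and 5 (0.477%). The median change over the members was 0.89 against vehicle and 0.68 against low, with medians of 0 and -0.0002566 over all genes. These comparisons share the vehicle libraries with those of Soshiho-tang.

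IL32 measured 5.984, 5.996 and 6.419 CPM in Yijin-tang high, 3.895, 3.169 and 3.689 CPM in medium and 2.76, 2.95 and 2.59 CPM in low. All medium libraries lay above vehicle and low, and all high libraries above medium. Its change was 1.06 ± 0.180 against vehicle (adjusted p = 0.000702) and 1.14 ± 0.183 against low (adjusted p = 0.000405). CCL2 measured 8.976, 9.318 and 9.068 CPM in high, 5.789, 4.732 and 5.407 CPM in medium and 3.71, 5.18 and 5.774 CPM in low, so that medium and low overlapped and high stood apart. It rose by 1.03 ± 0.153 against vehicle (adjusted p = 8.2e-05) and 0.90 ± 0.154 against low (adjusted p = 0.00124).

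LCN2 measured 1.955, 1.769 and 2.394 CPM in Yijin-tang high and 0.6334, 1.151 and 1.274 CPM in low. It was called against both vehicle (0.90 ± 0.211, adjusted p = 0.0268) and low (0.98 ± 0.216, adjusted p = 0.0376). ICAM1 measured 1.715, 1.682 and 1.579 CPM in high and 0.9501, 0.7195 and 0.8067 CPM in low. The groups did not overlap, and the change was 0.89 ± 0.223 against vehicle (adjusted p = 0.0505 with 54 libraries, 0.00609 with 52) and 1.01 ± 0.231 against low (adjusted p = 0.0534 with 54, 0.00904 with 52). CCL20 had 9, 4 and 9 counts in high and was not called.

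Of the inhibitors, TNFAIP3 measured 8.896, 10.31 and 10.8 CPM in Yijin-tang high and 7.33, 6.979 and 7.345 CPM in low. It rose by 0.89 ± 0.201 against vehicle (adjusted p = 0.019); its low dose differed from vehicle by 0.42 and its high dose from low by 0.47 (adjusted p = 1.0 with 54, 0.0283 with 52). BIRC3 measured 37.3, 35.98 and 37.04 CPM in high, 31.3, 32.94 and 29.55 CPM in medium and 29.73, 32.05 and 30.36 CPM in low, and rose by 0.42 ± 0.0922 against vehicle (adjusted p = 0.0135). NFKBIA measured 59.08, 51.29 and 58.84 CPM in high and 54.93, 54.97 and 54.01 CPM in low, which overlap. RELB (17.39, 17.08 and 16.76 CPM) stayed within the vehicle range at the high dose, and NFKB2 (56.61, 54.22 and 53.64 CPM) lay above it and was called in the fit of 52 alone (0.19, adjusted p = 0.0112).

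The IL32 calls against vehicle and low and the CCL2 call against vehicle held with any 1 library left out. The count against vehicle fell from 5 to 3 without vehicle replicate 1 or 3 or Yijin-tang high replicate 1, and to 2 without vehicle replicate 2 or Yijin-tang high replicate 3; that against low fell to 1 without Yijin-tang low replicate 1. Leukocyte markers summed to 15.3 to 16.6 CPM in Yijin-tang high, inside the range of its low dose (13.6 to 17.5 CPM).

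**Figure D3:**
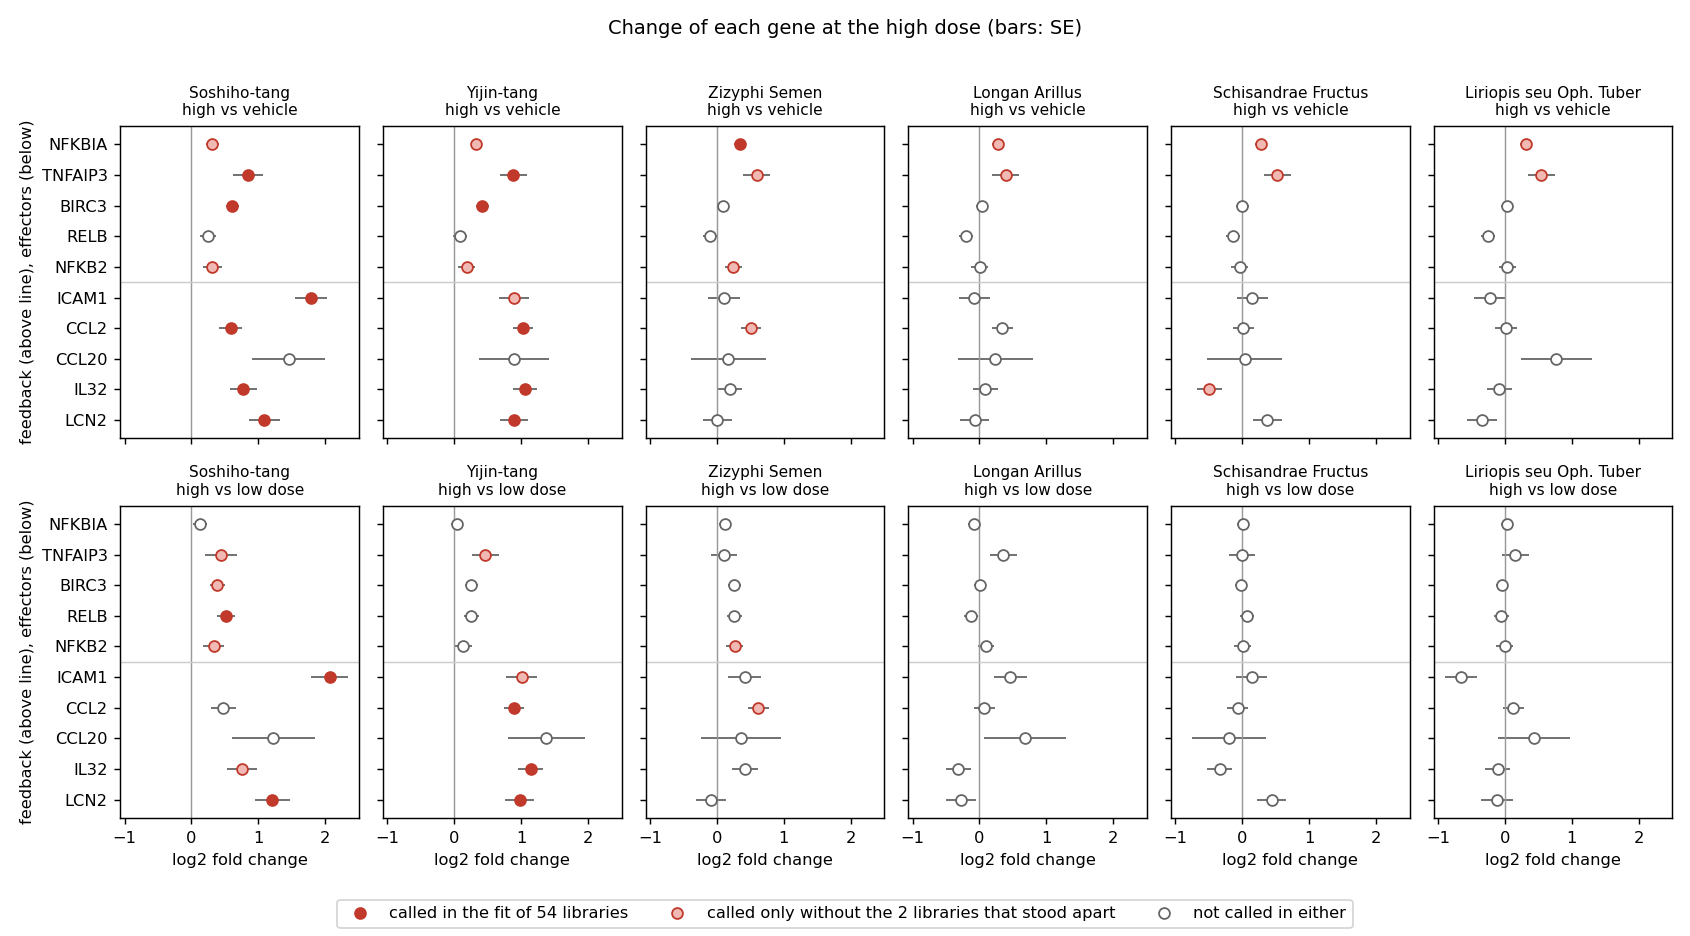
Change of each member (horizontal axes, log2, bars show SE) at the high dose of the 6 replicated extracts against vehicle (top) and against the low dose (bottom); filled points were called in the fit of 54 libraries, pale points in the fit of 52 alone and open points in neither. ICAM1 lies farthest to the right in Soshiho-tang at 1.79 and 2.07, and IL32 and CCL2 farthest in Yijin-tang against vehicle at 1.06 and 1.03, where against low the open point of CCL20 (1.38) lies beyond IL32 (1.14); points of Liriopis, Schisandrae and Longan against low are all open.

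Set side by side at 500 µg/mL, the decoctions differed in the level of ICAM1. It was higher in Soshiho-tang than in Yijin-tang by 0.89 ± 0.230 (adjusted p = 0.0373), the 1 member called of 10 (1.19% of all genes); in the fit of 52 a second was called (8.37%), CCL2, lower in Soshiho-tang by -0.44 (adjusted p = 0.343 with 54, 0.0362 with 52). IL32 also measured less in Soshiho-tang (-0.28, adjusted p = 0.879). The feedback genes differed by -0.04 to 0.19 and none was called. The ICAM1 call was lost when any 1 of the 5 libraries was left out (adjusted p from 0.113 to 0.422), and the difference of its high against low changes, 1.05 ± 0.361, was not called with 54 libraries (adjusted p = 0.476) or with 52 (0.122).

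At the high dose of Zizyphi NFKBIA rose against vehicle, and TNFAIP3, NFKB2 and CCL2 were called higher once the pair of libraries that stood apart was left out. The count against vehicle was 1 of 10 (1.84% of all genes) with 54 libraries and 4 (9.29%) with 52. NFKBIA measured 57.16, 56.24 and 57.64 CPM in high and 52.61, 53.1 and 51.79 CPM in low, with no overlap. NFKB2 measured 59.47, 54.77 and 56.41 CPM in high and 50.24, 47.02 and 44.37 CPM in low. CCL2 measured 6.342, 5.732 and 7.057 CPM in high and 4.194, 3.845 and 4.371 CPM in low. Both were above their low dose in every library.

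Against its low dose no member of Zizyphi was called with 54 libraries by edgeR or DESeq2 (0.028% and 0.129% of all genes were), 5 had an unadjusted p below 0.05 (3.75%), and in the fit of 52 NFKB2 (0.27, adjusted p = 0.00161) and CCL2 (0.62, adjusted p = 0.00763) were called (1.15%). The call of NFKBIA against vehicle was lost without vehicle replicate 2 or 3 or Zizyphi high replicate 1 or 3. Leukocyte markers summed to 21.9 to 22.8 CPM in Zizyphi high against 16.9 to 19.8 CPM in low, which was not tested further. Longan, of the same set, measured 47.71, 50.37 and 46.26 CPM of NFKB2 at the high dose. The difference in NFKB2 between Longan and Zizyphi was -0.24 (adjusted p = 0.00657 with 52 libraries and 1.0 with 54), the 1 member called with 52 (0.719%) and none with 54 (0.0112%), where 0 had an unadjusted p below 0.05 and DESeq2 called 0.

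In Liriopis, Schisandrae and Longan at the high dose, no member was called against the low dose, and against vehicle members were called in the fit of 52 alone. Of 30 tests against vehicle none was called with 54 libraries (0.888% of all such tests were) and 7 with 52 (10.1%); 8 had an unadjusted p below 0.05 (8.81%), and DESeq2 called 0 (1.77%) and gave no adjusted p for 3. Of the 7, 6 were NFKBIA and TNFAIP3, each in all 3 extracts, and the other was IL32, lower in Schisandrae (1.861, 2.457 and 1.977 CPM; -0.49, adjusted p = 0.00823). Against the low dose none of 30 was called with 54 libraries (6.25%), with 52 (0.541%) or by DESeq2 (7.45%; it gave 3 no adjusted p), and 2 had an unadjusted p below 0.05 (13.7%). These were ICAM1 in Liriopis, which averaged 1.22 CPM at low and 0.769 CPM at high (-0.66 ± 0.240), and LCN2 in Schisandrae, at 1.033 to 1.06 CPM in low and 1.175 to 1.627 CPM in high without overlap (0.44 ± 0.216), both with an adjusted p of 1.0. Between Liriopis and Schisandrae at the high dose no member was called (0.0561% of genes with 54 libraries, 2.97% with 52); 2 members had an unadjusted p below 0.05 and DESeq2 called 0. LCN2 measured 0.7706 to 0.9296 CPM in Liriopis high, below Schisandrae high without overlap (-0.72 ± 0.223, adjusted p = 0.469 with 54 and 0.056 with 52).

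The change from low to high dose was also compared between the extracts of each set. Of 30 such tests none was called with 54 libraries (0.0991% of all genes' tests), 5 had an unadjusted p below 0.05 (8.88%) and DESeq2 called 0 (0.261%) and gave 7 no adjusted p. With 52 libraries 1 was called (1.01%): NFKB2, with a difference of -0.45 between Longan and Zizyphi (adjusted p = 0.00148). Its mean fell in Longan, from 54.42 CPM in the 2 low libraries kept (51.98 and 56.87 CPM) to 48.11 CPM at high. In Zizyphi it rose from 47.21 to 56.88 CPM.

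**Figure D4:**
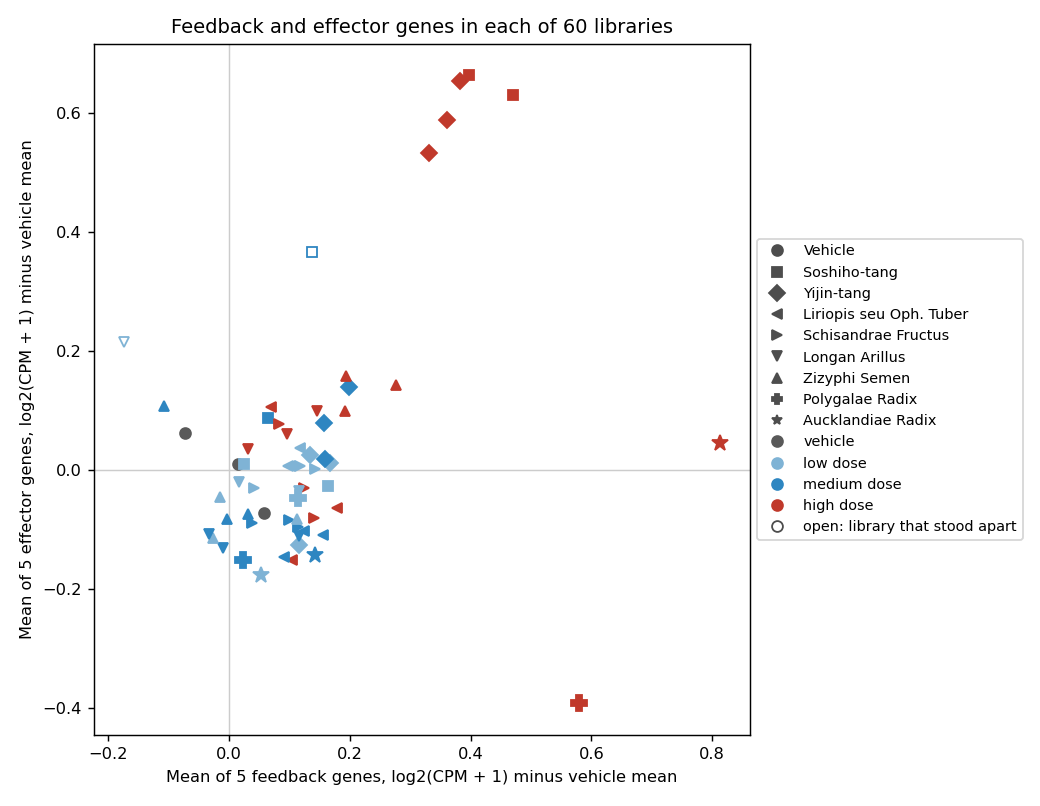
Mean over the 5 effectors (vertical axis) against the mean over the 5 feedback genes (horizontal axis), each as log2(CPM + 1) minus its vehicle mean, for each of the 60 libraries. Soshiho-tang and Yijin-tang high libraries lie above 0.5 on the effector axis, and the high libraries of Polygalae and Aucklandiae lie farthest to the right, at -0.39 and 0.04 on the effector axis.

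Averaged over the 5 genes of each kind, the decoctions and the set 11 extracts occupied different places. The effector mean, in log2(CPM + 1) above vehicle, was 0.63 and 0.66 in Soshiho-tang high and 0.59, 0.53 and 0.65 in Yijin-tang high, beside feedback means of 0.47 and 0.40, and 0.36, 0.33 and 0.38. Polygalae high had a feedback mean of 0.58 with an effector mean of -0.39, and Aucklandiae high one of 0.81 with 0.04. Adding 1 CPM shrinks the changes of ICAM1, CCL20 and LCN2.

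Polygalae at 380 µg/mL and Aucklandiae at 370 µg/mL had 1 library a dose, so no difference here has a replicate check, and intervals (95%, exact Poisson) cover counting error only. Polygalae high had TNFAIP3 and NFKBIA higher and IL32 and LCN2 lower than every other library, LCN2 at 14 counts. Aucklandiae high had BIRC3, NFKB2, RELB and the effector CCL2 higher than every other library. For RELB, CCL2 and LCN2 the margin was small. RELB measured 21.78 CPM against 21.42 CPM in Polygalae high, and CCL2 9.446 CPM against 9.318 CPM in the highest Yijin-tang high library. LCN2 measured 0.4916 CPM in Polygalae high (0.2688 to 0.8249 CPM), and the 0.5353 CPM of Polygalae medium lies inside that interval. Of the 7 members with a mean of at least 1 CPM (ICAM1, CCL20 and LCN2 had less), 1 was at least 2-fold higher and 1 lower than vehicle in Polygalae high (3.62% and 10.8% of 13936 genes), and 2 higher and 0 lower in Aucklandiae high (1.02% and 0.904%).

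**Figure D5:**
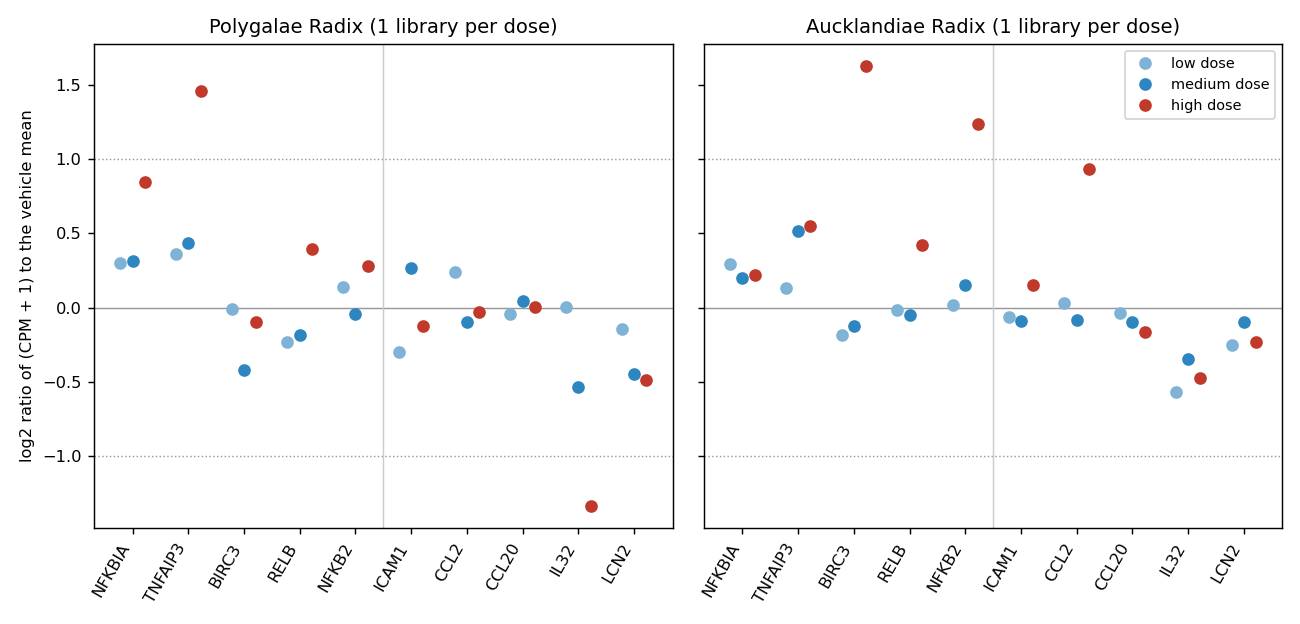
Log2 ratio of CPM + 1 to the vehicle mean (vertical axis) for each member at the low, medium and high dose of Polygalae and Aucklandiae, 1 library each, with dotted lines at 2-fold. TNFAIP3 passes the upper line and IL32 the lower in Polygalae high, and BIRC3 and NFKB2 pass the upper in Aucklandiae high; low and medium points lie between the lines.

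In Polygalae, TNFAIP3 measured 7.239, 7.66 and 16.58 CPM at the low, medium and high dose (interval at high 15.11 to 18.14 CPM, 472 counts), 3.07 times vehicle and 2.29 times low. NFKBIA measured 55.32, 56.05 and 81.33 CPM (78.05 to 84.71 CPM), 1.82 times vehicle. RELB measured 13.5, 14.0 and 21.42 CPM. BIRC3, at 27.3, 20.26 and 25.6 CPM, did not follow them, and NFKB2 measured 53.09, 46.58 and 58.61 CPM. IL32 went down with each dose, at 2.949, 1.73 and 0.5619 CPM, the last from 16 counts (0.3212 to 0.9124 CPM).

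Other effectors of Polygalae were low or near vehicle: LCN2 measured 0.8937, 0.5353 and 0.4916 CPM, CCL2 5.452, 4.118 and 4.354 CPM, and ICAM1 0.5362, 1.277 and 0.7374 CPM, with no order by dose in the last. The log2 ratio of IL32 was -1.34 to vehicle and to low. Without scaling factors the median of all genes in Polygalae high moved from -0.03 to 0.27, and NFKBIA then passed 2-fold (1.17). BIRC3, CCL2 and ICAM1, at -0.10, -0.03 and -0.12 with the factors, changed sign and lay above vehicle without them. A549 epithelial markers summed to 4088 CPM in Polygalae high, against 19155 CPM at low and 21448 to 21916 CPM in vehicle, leukocyte markers to 5.58 CPM and fibroblast markers to 21.1 CPM. Their part in these values was not tested.

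In Aucklandiae, BIRC3 measured 24.02, 25.1 and 86.85 CPM at the low, medium and high dose (82.98 to 90.85 CPM, 1894 counts), 3.16 times vehicle. NFKB2 measured 48.76, 53.62 and 114.5 CPM (110.1 to 119.1 CPM), 2.38 times vehicle. RELB measured 15.87, 15.42 and 21.78 CPM. TNFAIP3 (6.018, 8.168 and 8.392 CPM) and NFKBIA (55.25, 51.7 and 52.41 CPM) stayed in the range of the replicated extracts. The feedback genes farthest from vehicle were thus BIRC3 and NFKB2 in this extract and TNFAIP3 and NFKBIA in Polygalae.

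CCL2 was the effector that was high in Aucklandiae, at 4.596, 4.152 and 9.446 CPM (8.2 to 10.83 CPM), 2.11 times vehicle, or 0.93 on the scale with 1 CPM added. IL32 measured 1.658, 2.099 and 1.834 CPM, below vehicle at all doses, LCN2 0.7581, 0.9583 and 0.7796 CPM and ICAM1 0.8055, 0.7757 and 1.101 CPM. CCL20 had 3, 2 and 1 counts. The A549 markers summed to 13549 CPM at high and 19631 CPM at low, and leukocyte markers to 35.8 and 17.9 CPM, most of it CD68; their part was not tested.

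Against their own low dose the same members passed 2-fold: TNFAIP3 higher and IL32 lower in Polygalae (2.48% and 9.54% of genes), and BIRC3 and NFKB2 higher in Aucklandiae (0.646%; 0.574% of genes were lower, and 0 members). In the 4 medium and low libraries no member did (0.796% of the genes' ratios). The median log2 ratio of the members to vehicle was -0.01 in Polygalae and 0.32 in Aucklandiae.

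The other genes of the pathway were taken from a list of 75 receptors, adaptors and kinases, subunits, inhibitors and targets, of which 59 were tested. In Soshiho-tang high 12 were called higher and 1 lower against vehicle, and 8 and 0 against low; with 52 libraries the counts were 18 and 3, and 16 and 1. Over all genes 3.02% were higher and 2.05% lower against vehicle, and 1.17% and 0.404% against low; with 52 libraries these shares were 10.2% and 11.3%, and 5.02% and 4.49%. By role, 1 of 8 receptors, 1 of 19 adaptors and kinases, 0 of 3 subunits, 3 of 10 other inhibitors and 7 of 19 other targets were higher. LTBR, the receptor that drives the non-canonical branch, averaged 182.9 CPM in vehicle, 190.3 in low and 225.5 in high (0.30 ± 0.0607, adjusted p = 0.000965). TNIP1, a partner of A20, averaged 95.4, 89.3 and 114.7 CPM (0.27 ± 0.0684, adjusted p = 0.0116). The neutrophil chemokine CXCL1 averaged 0.972, 1.02 and 5.14 CPM (2.39 ± 0.259), a larger change than that of any member. The 1 gene called lower was MAP3K14, the kinase of the non-canonical branch (-0.58), named after its value was seen.

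Yijin-tang high had 4 of the 59 higher and 0 lower against vehicle, and 3 and 0 against low (8 and 4, and 5 and 1, with 52 libraries). Over all genes 0.286% were higher and 0.258% lower against vehicle, and 0.101% and 0.0449% against low; with 52 libraries 3.04% and 4.13%, and 0.477% and 0.51%. CXCL1 averaged 5.00 CPM there (2.35 ± 0.242) and CXCL8 4.60 CPM (2.12 ± 0.295). In the single libraries 54 of the listed genes had at least 1 CPM. Polygalae high had 0 at least 2-fold higher and 3 at least 2-fold lower than vehicle (3.62% and 10.8% of all 13936 genes were). These 3 were the complement gene C3 (-2.51), the protease gene PLAU (-1.53) and BCL2A1 (-1.14), the last named after its value was seen. Aucklandiae high had BCL2A1, a survival gene, higher (1.21, likewise named afterwards) and C3 (-1.10) and the prostaglandin enzyme PTGS2 (-1.06) lower. Over all genes 1.02% were at least 2-fold higher and 0.904% lower in Aucklandiae high. MAP3K14, which BIRC3 helps to degrade, measured 77.19, 79.99 and 145.3 CPM in Aucklandiae at low, medium and high, and 108.2 CPM in vehicle.

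Across the 25 group means, the genes with the pattern most like that of ICAM1 among 3561 searched were TSC22D3 (Pearson r = 0.80), CXCL8 (0.80) and TRIB3 (0.76). Those most like NFKBIA were ZFAND4 (0.95), ZNF114 (0.93) and JUND (0.92). The likeness to NFKBIA leaned on the single-library groups: over the 19 replicated groups the values were 0.79, 0.81 and 0.67, whereas for ICAM1 they were 0.88, 0.90 and 0.92. Among the members over the 19 groups, r was 0.85 between ICAM1 and RELB, 0.84 between ICAM1 and BIRC3, 0.84 between CCL2 and IL32 and 0.76 between NFKBIA and TNFAIP3, but 0.06 between NFKBIA and RELB and 0.20 to 0.42 between NFKBIA and each of the other 7. Group means share sets, vehicle and scaling, so these values are descriptions.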

How the data were processed

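Expected counts for each gene, which the authors deposited as 1 table, were made with FastQC 0.11.9, Trim Galore 0.6.5, STAR 2.7.3a and RSEM 1.3.3 on hg38, per the submitters' processing notes; annotation release and strand setting: not given in the sources used here. Of the values, 10.485% were not whole, and counts were rounded. All 54 libraries of the 19 groups with replicates entered 1 fit with edgeR 4.0.16 in R 4.3.3 (quasi-likelihood F test, robust, TMM factors, filterByExpr by group) in 36 contrasts. In each, 17826 genes were tested, all 10 members among them, with Benjamini-Hochberg adjustment over all of them; called means an adjusted p below 0.05, from edgeR unless DESeq2 1.42.0 is named. The fit without the pair of libraries that stood apart held 52 libraries and 18228 genes, a choice known from an earlier account of these data. CPM were scaled with TMM factors of all 60 libraries. Polygalae and Aucklandiae had no test: ratios of CPM with 1 CPM added were read against 2-fold.

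Within each group, libraries differed beyond sampling noise (chi-square per degree of freedom at least 1.822). Totals of at least 18.003 M leave ICAM1, LCN2 and above all CCL20 with few counts. The members, lists, tests and alternatives were chosen with earlier results of these data known. All members are named; of the wider list, up to 2 genes per role and direction called the same way against vehicle and low with a mean of at least 1 CPM (single libraries: at least 10 CPM and values in order of dose). The fit was tested on simulated counts. Alternatives were DESeq2, RLE or no factors, no filter, fits of 1 set with vehicle, a replicate block and leaving out each library.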

Additional observations from a re-analysis of the deposited data

How the results depend on the processing

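Of 24 changes of single members called with all 54 libraries, RLE factors, DESeq2 and the replicate block each kept 24, no factors 23, leaving out the pair of libraries that stood apart 22, and no filter and fits of 1 set with vehicle 14 each. In all, 12 were kept in every such setting, and 7 also with each library left out. Over 130 checks, each of 1 call with 1 library left out, 68 kept the call, and checks of several calls share a fit. None of these alternatives reversed a direction.

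Counts of members called moved as follows, among other moves. Without the pair that stood apart: Soshiho-tang high against low 3 to 7, Yijin-tang against vehicle 5 to 8 and against low 3 to 5, Liriopis, Schisandrae and Longan against vehicle 0 to 2, 3 and 2, Zizyphi against vehicle 1 to 4 and against low 0 to 2, medium and low doses against vehicle 4 to 25, medium against low 1 to 0, the extracts of a set 1 to 3 and differences of changes 0 to 1. With no filter: Yijin-tang against vehicle 3, Zizyphi 0, medium and low 2, medium against low 0 and the extracts of a set 0. With 1 set and vehicle: Liriopis 2, Schisandrae 3, Zizyphi 0, medium and low 10, medium against low 0 and the extracts of a set 2. With RLE factors Zizyphi had 2, with DESeq2 3, and with no factors the extracts of a set had 0. Soshiho-tang high against vehicle moved from 6 to 8 without the pair and to 7 with DESeq2. DESeq2 also gave 4 in place of 3 for Soshiho-tang high against low. For Yijin-tang high against vehicle it gave 7 in place of 5. The cause was not tested.

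With 1 library left out, counts ran from 3 to 6 (Soshiho-tang against vehicle), 1 to 1 (against low), 2 to 5 (Yijin-tang against vehicle), 1 to 3 (against low), 0 to 2 (Longan against low), 0 to 1 (Zizyphi against vehicle), 2 to 7 (medium and low), 0 to 7 (medium against low), 0 to 1 (extracts of a set), 0 to 3 (differences) and 0 to 0 elsewhere. The highest counts for medium and low doses came without Soshiho-tang medium replicate 2 (7 and 7), which leaves its replicate 3 alone in that group, and Longan low replicate 1 (6 and 5); the differences had 3 without Longan low replicate 1 or 2, and medium and low against vehicle had 2 without vehicle replicate 1 or 3. A lone library is assumed to vary like the other groups.

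The labels do not say that replicate numbers pair libraries, and not all same-numbered pairs deviated together: their median correlations were -0.03, 0.03 and 0.11 in sets 8, 9 and 10. In set 10, 22 of 40 same-numbered pairs were over 0.1, against 15 of 80 others, and replicate 1 had the highest feedback mean in all 6 groups. With the replicate number as a block, Zizyphi against vehicle had 2 members in place of 1. Of 20 ratios in the single high libraries, adding 0.25 CPM moved 10, no factors moved 11 and RLE factors 0. Depth limits CCL20, at 1 to 11 counts a library.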
